A study of Rattus norvegicus with 3 samples.

Results

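The expression of 12631 genes, of 18425 in the deposited table, was compared between the 2 control libraries of the study, a retina library from rats injected with saline and a retina library from rats injected with citrate buffer. A gene was used if its mean was at least 10 reads over the buffer, saline and STZ libraries and if its deposited count was a whole number in each of the 3. Wild-type Sprague-Dawley rats, an albino stock, received 1 µl into the vitreous at P1 and the retinas were dissected at P4. The Buffer group received citrate buffer of pH 4.5, the solvent of STZ, and the Saline group received saline. The third library, from eyes given 10 µg of the alkylating drug STZ (streptozotocin), entered the minimum count, and its values are given beside those of the controls. There was 1 library per group, so no p-value was computed and no difference has a replicate check. For the examinations of function and morphology, STZ and buffer went into opposite eyes of the same animals, and whether the sequenced buffer and STZ retinas share animals in this way is not stated. The number of animals behind a library and their sex are not given in the sources used here, and solvent, animals and dissection cannot be told apart in any difference below.

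At P4 the rat retina still holds dividing progenitor cells beside ganglion, amacrine and horizontal cells, cones and young rods. At its rim it continues into the epithelium of the ciliary body and iris, which makes much of the matrix of the vitreous. The pigment epithelium lies behind it and the lens in front of it. These tissues have genes of their own: opticin and collagen IX for the ciliary epithelium and vitreous, melanosome genes for the pigmented layers, and crystallins for the lens. A dissected retina can hold some of each.

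Several genes of the pigmented layers are known targets of MITF, a transcription factor that binds the sequence CATGTG, the core of the M-box. The 250 bases before the start of 4 of these genes, which were all higher in the saline library (values below), are shown here from RefSeq, build GRCr8, with each CATGTG on either strand (CACATG when it lies on the other strand) in capitals.
Tyr, chr1:150622858-150623107, minus strand: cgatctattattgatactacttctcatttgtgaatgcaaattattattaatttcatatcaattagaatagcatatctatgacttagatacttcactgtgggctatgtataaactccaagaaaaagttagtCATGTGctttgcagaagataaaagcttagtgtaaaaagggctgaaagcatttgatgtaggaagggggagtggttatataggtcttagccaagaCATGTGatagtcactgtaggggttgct
Tyrp1, chr5:100326875-100327124, plus strand: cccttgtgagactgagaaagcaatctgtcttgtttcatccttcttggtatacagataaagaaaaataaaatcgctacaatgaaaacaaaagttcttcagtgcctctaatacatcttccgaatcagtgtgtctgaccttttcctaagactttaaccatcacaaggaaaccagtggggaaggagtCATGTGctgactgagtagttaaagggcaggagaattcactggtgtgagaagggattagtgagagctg
Dct, chr15:101508030-101508279, minus strand: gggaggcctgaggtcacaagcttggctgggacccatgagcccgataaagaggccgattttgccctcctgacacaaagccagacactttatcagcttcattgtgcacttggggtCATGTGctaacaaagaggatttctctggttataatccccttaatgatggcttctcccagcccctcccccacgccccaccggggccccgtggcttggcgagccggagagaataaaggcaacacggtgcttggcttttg
Gpnmb, chr4:79340878-79341127, plus strand: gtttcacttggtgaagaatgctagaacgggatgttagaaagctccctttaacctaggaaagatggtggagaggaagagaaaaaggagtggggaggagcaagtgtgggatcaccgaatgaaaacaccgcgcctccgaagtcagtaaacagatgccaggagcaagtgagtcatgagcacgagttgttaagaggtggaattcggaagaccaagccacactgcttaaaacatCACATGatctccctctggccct
Tyr holds 2 matches and the other 3 promoters hold 1 each. Of the 15 pigment epithelium and melanogenesis genes that were compared, 7 had a match in this window (46.7%), among them also Kcnj13, Serpinf1 and Rgr, while Pmel had none. A match was found in 12.9% of all 27457 genes with a promoter and in 7.95% of the 10211 that are genes of this comparison. A match describes these letters only and says nothing of binding.

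The counts of the buffer library total 21992702 reads and those of the saline library 21977843, and the compared genes hold 84.5% of the reads in both. The fold change of a gene was (FPKM saline + 1)/(FPKM buffer + 1), where FPKM is the number of fragments scaled to transcript length and sequencing depth. The thresholds were those the study used for STZ, above 0.62 or below -0.62 on the log2 scale (a fold of 0.65 for the lower one). Higher in saline were 100 genes (0.792%), and 15 (0.119%) were lower, which makes 115 (0.91%). These numbers depend on the rule for genes: with genes of fractional counts included, 151 were higher and 66 lower, and with a pseudocount of 0.1, 383 and 83. The other genes were close between the 2 libraries. The median log2 fold change was 0.02, the quartiles were -0.06 and 0.10, and percentiles 1 and 99 of the fold were 0.789 and 1.49. Fold changes above 1 were found in 54.7% of the genes and below 1 in 44.5%. Over the same genes and with the same rule, STZ passed the thresholds in 3.17% of the genes against buffer and in 3.82% against saline; these comparisons share the control libraries.

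**Figure D1:**
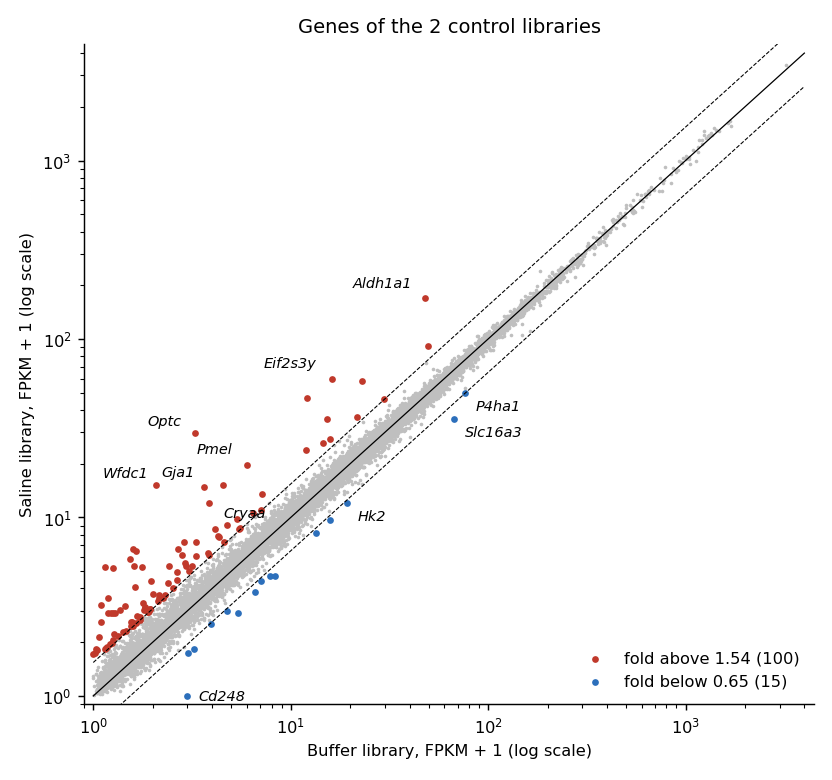
FPKM + 1 of each of the 12631 genes in the buffer library (x axis) and the saline library (y axis), both on log scales, 1 point per gene. The solid line marks equal values and the dashed lines the 2 thresholds; the 100 red genes lie above the upper line and are more numerous than the 15 blue genes below the lower one, among genes with whole counts only (151 and 66 with fractional counts included).

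Most of the genes past the thresholds were weakly expressed. Of the genes with a mean of 10 to 50 reads, 2.24% were higher in saline, against 1.82% at 50 to 200 reads, 0.551% at 200 to 1000 and 0.14% above 1000. In the buffer library 50 of the 100 higher genes had an FPKM under 1, where the pseudocount of 1 pulls a fold toward 1. A count ratio, the reads of a gene in saline over those in buffer after division by the library totals, is therefore given too, with an exact Clopper-Pearson 95% interval. The interval covers counting error only and compares 2 libraries, not the solvents. For genes selected by fold from the same 2 libraries, the interval is not a separate check. It lay above 1 for 97 of the 100 higher genes and below 1 for 13 of the 15 lower genes. The exceptions were Mt2A, Klhdc4, Dusp23, Guca2a and Pvalb, all with at most 37 reads in each control library.

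The 2 control libraries also differed in genes of the Y chromosome. Eif2s3y, a Y-linked translation initiation factor gene, was measured at 15.15 FPKM with buffer, 58.48 with saline and 46.23 with STZ. Ddx3, which RefSeq names Ddx3y by its identifier, a Y-linked RNA helicase gene, had 11.13, 45.89 and 31.80. LOC103694552, named Sry2 in RefSeq, had 10 reads in buffer, 52 in saline and 57 in STZ. LOC103694537, a protein-coding gene that RefSeq also places on the Y chromosome, had 95, 536 and 366 reads. The buffer library was the lowest of the 3 for all of these, and the count ratios of saline to buffer were 3.86 (95% counting interval 3.49 to 4.26) for Eif2s3y, 4.03 (3.74 to 4.35) for Ddx3, 5.2 (2.62 to 11.5) for LOC103694552 and 5.65 (4.53 to 7.1) for LOC103694537. The part of this difference in the results below was not tested. Of the 115 genes past the thresholds, 52 belong to a list of marker or pathway genes. With the genes of the ciliary, pigment, lens, vitreous and Y-linked lists left out, 76 higher and 15 lower genes remained. The Y-linked list had 1 compared member, Eif2s3y. Ddx3, LOC103694552 and LOC103694537 are not in it and were still counted among the 76.

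The 2 largest folds belonged to genes of the vitreous matrix and the ciliary epithelium. Optc, which encodes opticin, a proteoglycan of the vitreous made by the ciliary epithelium, had the largest fold of all, 9.13, with 2.26 FPKM with buffer, 28.77 with saline and 0.89 with STZ. Wfdc1, which encodes a protease inhibitor with a whey acidic protein domain, had 1.09, 14.16 and 0.65. Gja1, the gap junction protein connexin 43 that couples the layers of the ciliary epithelium, had 2.65, 13.73 and 3.34. In these 3 genes the saline library was high and the buffer and STZ libraries were low. The count ratio was 11.1 (8.88 to 14.1) for Optc, 12.9 (8.19 to 21.5) for Wfdc1 and 5.19 (4.39 to 6.15) for Gja1.

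Of the 20 genes in the ciliary and iris epithelium list, 16 were compared. Of these, 6 were higher in saline and 0 were lower, against 0.792% and 0.119% of all genes, and 13 had a fold above 1. Their median log2 fold change was 0.53, against 0.02 over all genes. The lists used here were written with earlier results of these data known, so an excess over all genes can be partly built in. Beside Wfdc1, Gja1 and Aldh1a1, the higher members were Dapl1, Bmp4 and Wls, the carrier that Wnt ligands need for secretion. Bmp4, a ligand of the BMP pathway, had 18 reads in buffer, 102 in saline and 9 in STZ, a count ratio of 5.67 (3.41 to 9.95). Zic1 (fold 1.53) and Ptgds (1.53) lay just under the threshold. The list was not uniform: Mab21l1 and Tgfb2, its members with the most reads in buffer, had folds of 1.02 and 1.02, and Mgp had 0.735 from 42 and 29 reads. Otx1 and Msx1, transcription factor genes of the ciliary margin, and Best2 were below the minimum, with 6, 4 and 2 reads in buffer and 15, 5 and 1 in saline.

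The vitreous matrix list gave 4 higher and 0 lower genes of 13, with a median log2 fold change of 0.35 and 12 folds above 1. Col9a1 and Col9a2, chains of collagen IX, a collagen carried on the fibrils of the vitreous, had FPKM of 14.36 and 10.94 in buffer, 34.64 and 22.97 in saline and 13.08 and 7.08 in STZ. The third chain, Col9a3, had a fold of 1.47 (22.34 and 33.36). Col18a1, a basement membrane collagen, had 13.65, 25.05 and 13.91, a fold of 1.78. The collagens of the fibril itself were closer between the libraries, with folds of 1.08 for Col2a1, 1.2 for Col11a1 and 1.12 for Col11a2. Vcan (1.08), a large proteoglycan, Has2 (1.07), a hyaluronan synthase, and Col5a2 (0.995) were also inside the thresholds. Over all 36 collagen genes compared, a family taken after the values were seen, 4 were higher and 0 lower, and 29 had a fold above 1. Collagens with fractional counts were not compared, and some of them lay past a threshold in either direction. Col15a1 had 162.71 reads in buffer, 65.03 in saline and 64 in STZ, a fold of 0.643, and Col1a2 had a fold of 1.64.

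Some single matrix genes outside this list, named after their values were seen, were past the upper threshold, while others were near 1. Ltbp1 and Ltbp2 encode proteins that bind latent TGF-β in the matrix. Ltbp1 had 80 reads in buffer, 573 in saline and 56 in STZ, a fold of 3.32 and a count ratio of 7.17 (5.66 to 9.17). Ltbp2 had 10, 159 and 8 reads, with a count ratio of 15.9 (8.43 to 33.8). Fbn1, the main fibrillin of microfibrils and of the zonule that holds the lens, had a fold of 1.87, with 349, 833 and 285 reads. Of the 6 fibrillin and Ltbp genes, a family taken after the values were seen, these 3 were higher, while Ltbp3 had a fold of 1.17, Ltbp4 of 0.992 and Fbn2 of 1.41. Matn3 (2.38), Sned1 (2.47), Abi3bp (1.61) and Otor (1.59), which encode secreted or matrix proteins, were higher as well. In the basement membrane list 0 of 15 genes passed a threshold, but 14 had a fold above 1 and the median was 0.15. Col4a5 and Lama5 had the largest folds, 1.46 and 1.4, and Fn1 had 0.991. The list does not hold Col18a1, which passed at 1.78 and was placed in the vitreous matrix list.

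**Figure D2:**
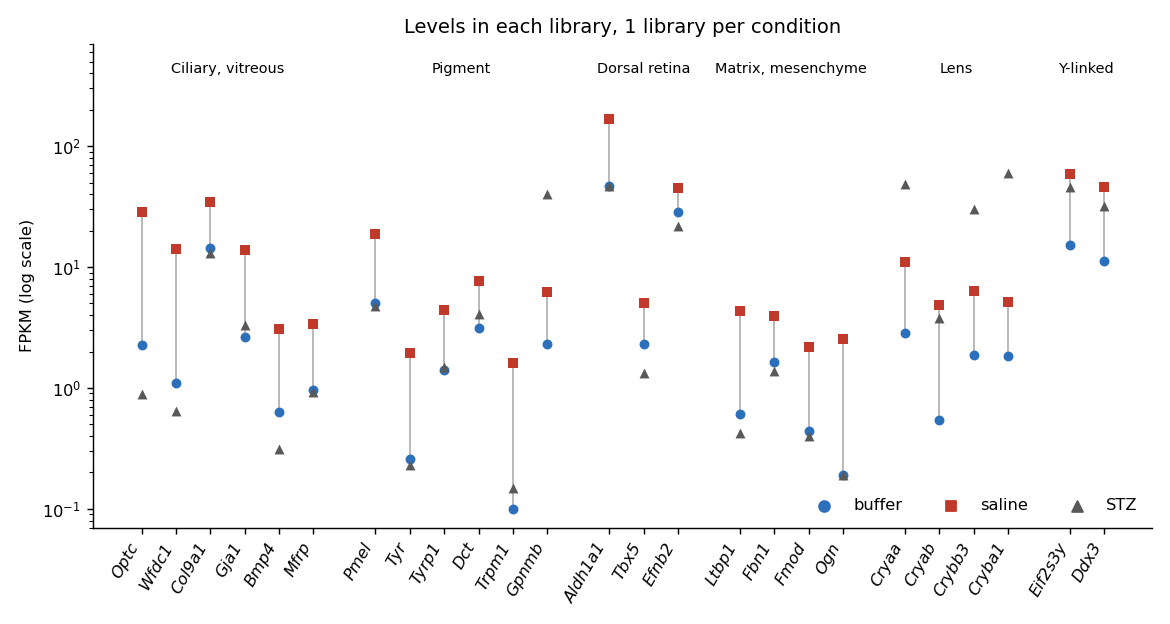
FPKM on a log scale (y axis) of 25 genes (x axis), grouped by tissue, in the buffer (blue circles), saline (red squares) and STZ (grey triangles) libraries, with a grey line from buffer to saline. The saline library is above buffer for each of these genes, chosen among the higher ones; STZ lies near or below buffer for most ciliary, pigment, dorsal and matrix genes, and above saline for Gpnmb, Cryaa, Crybb3 and Cryba1.

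The genes of the pigment epithelium and of melanin synthesis gave 6 higher and 0 lower genes of 15 compared, with a median log2 fold change of 0.24 and 12 folds above 1. Pmel, which builds the fibrils of the melanosome, was measured at 5.02 FPKM with buffer, 18.76 with saline and 4.77 with STZ, a fold of 3.28 and a count ratio of 3.73 (3.24 to 4.31). The 3 enzymes of melanin synthesis, Tyr, Tyrp1 and Dct, whose promoters are shown above, had 16, 76 and 134 reads in buffer, 118, 236 and 325 in saline and 14, 81 and 173 in STZ. Their count ratios were 7.38 (4.36 to 13.3), 3.11 (2.39 to 4.08) and 2.43 (1.98 to 2.99). For Pmel, Tyr and Tyrp1 the STZ and buffer libraries were close and the saline library alone was high.

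Gpnmb followed another order. It encodes a melanosome and lysosome glycoprotein that phagocytes also make, and its FPKM was 2.32 with buffer, 6.25 with saline and 39.88 with STZ. Kcnj13, a potassium channel gene of the pigment epithelium, had 18 reads in buffer, 42 in saline and 27 in STZ, and a fold of 1.58. Trpm1, a channel gene used by melanocytes and by ON bipolar cells, had 13, 213 and 19 reads, with a count ratio of 16.4 (9.38 to 31.3). Of the 7 bipolar cell genes compared, it alone passed a threshold, and the median was 0.00. Grm6, which encodes the glutamate receptor of ON bipolar cells, had a fold of 0.87 and Cabp5 of 0.876.

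Some genes of the visual cycle and of mature pigment epithelium differed less, but not all. Kcnj13, given above, passed the threshold and Serpinf1 had a fold of 1.43. Rrh, Slc16a8 and Ttr were the 3 compared members of the list with a fold below 1. Rgr had a fold of 1.01, Rrh of 0.942, Slc16a8 of 0.952 and Ttr of 0.841, with 477 reads in buffer and 398 in saline. Mitf itself had 86, 108 and 112 reads (buffer, saline, STZ), a count ratio of 1.26 (0.938 to 1.69). Rpe65, the isomerase that defines mature pigment epithelium, was below the minimum, with 0, 2 and 2 reads, as were Lrat with 2, 16 and 4, Mlana with 4, 16 and 7 and Slc45a2 with 1, 8 and 2. Mfrp, a membrane protein gene of pigment and ciliary epithelium in neither list, had a fold of 2.24, with 44, 160 and 42 reads.

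Some genes that mark the dorsal retina were higher too. They are not a separate group, since Aldh1a1 and Bmp4 were already counted in the ciliary and iris epithelium list. Aldh1a1, the retinoic acid synthesizing enzyme of the dorsal retina, had the largest absolute difference in FPKM of the genes past the thresholds, with 46.63 in buffer, 167.70 in saline and 46.53 in STZ. Aldh1a7, a close paralog whose reads may be shared with it, had 3.53, 14.29 and 4.14. Tbx5, the T-box factor that specifies dorsal identity, had 150, 305 and 92 reads, with a count ratio of 2.03 (1.67 to 2.49). Efnb2, a guidance ligand that is graded from dorsal to ventral, had 28.56, 45.24 and 21.78 and a count ratio of 1.58 (1.42 to 1.76). Saline was the highest of the 3 libraries in all 4 genes.

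Aldh1a1, Bmp4, Tbx5 and Efnb2 made 4 higher and 0 lower genes among the 16 of the dorsal and ventral list, whose median log2 fold change was 0.21. Further dorsal genes lay inside the thresholds with folds above 1, Efnb1 at 1.4, Bambi at 1.37, Tbx2 at 1.08 and Tbx3 at 1.05. Some ventral genes, Vax2 (0.93), Vax1 (0.85) and Ephb3 (0.999), did not exceed 1. Aldh1a3, the enzyme of the ventral retina, had a fold of 1.23 from 62 and 83 reads. Cyp1b1, also in the list, had 0.818. Over the whole list 11 of 16 folds were above 1 and 5 below, and not every member is named here. The difference between dorsal and ventral genes was not tested. In the nasal and temporal list 0 of 10 genes passed a threshold and the median was -0.03, with Foxd1, a temporal factor, at 1.47. Of the 15 genes of retinoic acid synthesis and response, only Aldh1a1 passed. Dhrs3, Rarb and Crabp1 had folds of 1.43, 1.33 and 1.31, and 11 of the 15 were above 1.

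Notum, a secreted enzyme that inactivates Wnt ligands and is not in the Wnt and BMP list, was among the 15 largest folds, with 7 reads in buffer, 185 in saline and 2 in STZ and a count ratio of 26.4 (12.6 to 66.7). Of the 22 genes of that list compared, 2 were higher, Bmp4 and the BMP target Id3 (323, 558 and 300 reads, fold 1.7), and 0 were lower. Bmp7 had a fold of 1.36, Axin2, a general Wnt target, of 1.09 and Wnt2b, a Wnt of the ciliary margin, of 0.885. The growth factor genes Fgf1 (fold 1.59) and Fgfr2 (1.61) passed the threshold as well. The Zic family, transcription factors of the retinal margin and dorsal neural tube, was taken after the values were seen. Its 5 members had folds above 1, and of them only Zic4 passed, with 13, 45 and 11 reads.

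Genes of epithelial junctions and transport were higher in saline in part. Of the 11 claudins compared, 2 were higher. The family was taken after the values were seen, so this count cannot be set against the 0.792% of all genes. Cldn1 had 19 reads in buffer, 127 in saline and 16 in STZ. Cldn19, a claudin of the pigment epithelium, had 1, 42 and 3, a count ratio of 42 (7.14 to 1699). Cldn2 (8, 45 and 6 reads) fell just short at 1.52 and Cldn5, the claudin of endothelium, had a fold of 0.843. Slc6a13, a transporter of GABA and taurine, had a fold of 4.13 and 12, 187 and 49 reads. Of the other 10 Slc6 transporters compared, a family also taken after the values were seen, Slc6a2 (1.8) and Slc6a15 (1.6) passed the threshold. The median log2 fold change of the family was 0.01, with 6 folds above 1 and 5 below. Slc13a4, a sulfate transporter gene, had 0 reads in buffer, 52 in saline and 3 in STZ, which is at least 17.3-fold higher in saline than 3 reads in buffer would give. Aqp1, a water channel gene of the ciliary epithelium, had 10, 100 and 7 reads, and Gstm2, a glutathione transferase gene, had 8, 69 and 6. Syt15, a synaptotagmin gene, had 54, 459 and 35 reads, with a fold of 3.95.

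Connective tissue genes were higher only in part. Of the 11 compared genes of the periocular mesenchyme and sclera, 3 were higher and 0 lower, Fmod with 26, 131 and 24 reads, Fbn1 and Col6a2 (62, 157 and 44), and the median was 0.05. The list name Ogn was not matched, because the table lists it as gene-Ogn; it encodes the proteoglycan mimecan and had 10, 138 and 10 reads, a fold of 2.98. Col1a1, Col5a2 and Col3a1, collagen genes of fibroblasts, had folds of 1.06, 0.995 and 0.945. Col1a2, the partner chain of Col1a1, was not compared because its counts are fractional, and it had 0 reads in buffer, 59.48 in saline and 104.09 in STZ, at least 19.8-fold higher in saline than 3 reads in buffer. Lum and Dcn, proteoglycan genes of the same tissues, were below the minimum, with 0 and 1 reads in buffer, 18 and 10 in saline and 3 and 0 in STZ. The skeletal muscle list gave 0 of 6 past a threshold (median 0.03). In the corneal and surface epithelium list 1 of 10 was higher, Krt18 (29, 67 and 25 reads), while Krt19, its most abundant gene, had a fold of 0.955 and Krt12, the keratin that defines the cornea, had 10 reads in both controls.

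Crystallin genes, but not the other lens genes as a list, were higher in saline, at low levels. Of the 8 crystallin genes compared, 6 were higher and 0 lower, with a median log2 fold change of 0.94, and they held 198 reads with buffer, 564 with saline and 2783 with STZ in all. Cryaa, an α-crystallin and a main chaperone of the lens fiber, had an FPKM of 2.86, 11.00 and 48.18. Cryab, the α-crystallin that other tissues also express as a small heat shock protein, had 0.54, 4.83 and 3.80, so that saline and not STZ was the highest. Crybb3, Cryba1, Crybb1 and Cryba4 had folds of 2.55, 2.18, 1.69 and 1.56, with 23, 22, 27 and 9 reads in buffer and 78, 62, 57 and 21 in saline. Crygn was close, with 53 and 51 reads. The γ-crystallins Cryga to Crygf had counts that were not whole in every library, and Crygs had too few reads, and none of them was compared. The folds of Cryga to Crygf were 1.72, 2.25, 2.11, 1.93, 1.3 and 2.06, from 56, 18, 6, 24.88, 9 and 27.12 reads in buffer. Crygs had a fold of 1 from 2 reads in each control.

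The other lens fiber genes had 2026 reads in buffer and 1919 in saline in all. Of the 6 compared, 3 had folds below 1 and 1 was higher: Bfsp1, which encodes a filament protein of the lens fiber, had 50, 105 and 90 reads. The median was 0.02. Bfsp2 had a fold of 1.1 and Tdrd7 of 0.922. Gja3, a lens connexin, had 1, 12 and 21 reads, with a fold of 1.28. Among lens fiber genes not compared, Grifin had 2 reads in buffer and 10 in saline, and Lim2 had 1 and 8. Mip had 73.23 and 73.21, Hsf4 had 11 and 11, and Lctl had 2 and 1. Hspb1, a small heat shock protein gene, had 13, 28 and 23 reads, with a fold of 1.55 and was the 1 higher gene of the 7 in the heat shock list, whose median was -0.01.

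Few immune genes passed the threshold, and the share of folds above 1, which was 54.7% over all genes, differed between the lists. In the microglia list 1 of 20 genes was higher, Tyrobp, an adaptor of activating receptors, with 36 reads in buffer, 63 in saline and 180 in STZ; 15 had folds above 1 and the median was 0.23. Cd68, a lysosomal protein of phagocytes (1.51), Fcer1g (1.46) and C1qb (1.37) came next. The homeostatic microglia genes Tmem119, P2ry12, Cx3cr1 and Gpr34 had folds of 0.892, 0.956, 0.896 and 0.827. Phagocyte genes and these 4 genes lay on different sides of 1 in the same list, with no test of the difference.

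Complement genes gave 1 higher gene of 15, the protease C1s, with 14, 57 and 28 reads, and a median of 0.28, with 13 folds above 1; C3, the central component, had a fold of 1.42. Of the antigen presentation genes outside RT1, the immunoproteasome subunit Psmb9 (14, 31 and 102 reads) and the invariant chain Cd74 (20, 43 and 44) were higher of 12, of which 7 had folds above 1, and B2m had a fold of 1.27. The interferon response list had 0 of 14 past a threshold, 8 folds above 1 and a median of 0.03. In the gliosis list, 1 of 16 was higher, the protease inhibitor Serpina3n, with 2, 33 and 16 reads and a count ratio of 16.5 (4.22 to 142), and 14 had folds above 1; Gfap, the filament of astrocytes and reactive Müller glia, had 1.18 and Stat3 1.14. The immediate early genes, which respond to handling within minutes, gave 0 of 19 past a threshold. Of the 19, 14 had folds above 1 and the median was 0.08, with Fos at 0.95, Egr1 at 1.1 and Jun at 0.775. Other immune genes past the threshold were Cd83 (1.81), Cxcl13 (1.65), Fcgrt (1.59) and Ifitm2 (1.89).

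**Figure D3:**
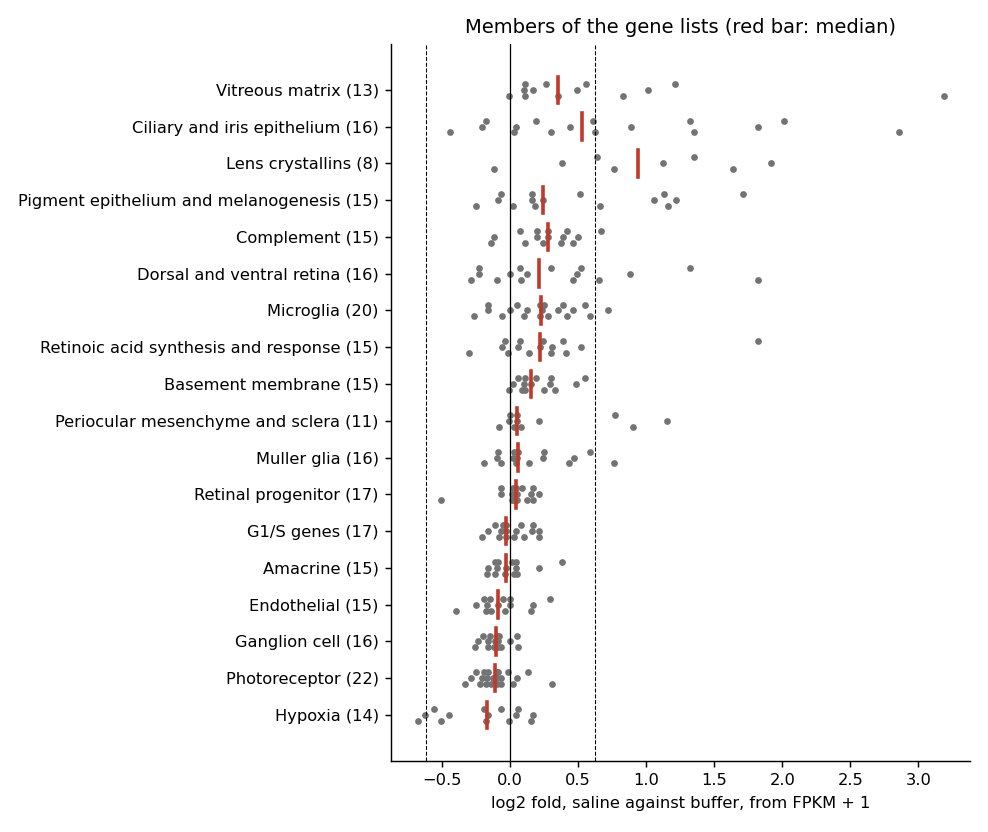
Log2 fold change of saline against buffer, from FPKM + 1 (x axis), for the compared members of 18 gene lists (y axis, number of members in parentheses), 1 grey point per gene. Red bars are medians and dashed lines mark the thresholds of 0.62 and -0.62; the medians run from 0.94 for lens crystallins to -0.17 for hypoxia, and single genes of the upper lists lie far to the right of their median.

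Among the 15 genes lower in saline, 3 are known for the hypoxia response and glucose use. HIF-1, the factor that is stabilized when oxygen is short, drives glucose uptake, glycolysis and lactate export. Slc16a3, which encodes the lactate exporter MCT4, was measured at 66.55 FPKM with buffer, 34.72 with saline and 50.52 with STZ, a fold of 0.529. Hk2, the inducible hexokinase, had 18.22, 11.03 and 19.81, a fold of 0.626. P4ha1, a prolyl hydroxylase of collagen, had 75.62, 48.57 and 65.12, a fold of 0.647. Saline was the lowest of the 3 libraries in each. These genes have many reads, and their count ratios were 0.521 (0.49 to 0.554), 0.617 (0.572 to 0.667) and 0.642 (0.61 to 0.676).

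Of the 14 hypoxia genes compared, 2 were lower in saline, Hk2 and P4ha1, and 0 were higher, where 0.119% of all genes were lower. Folds below 1 were found in 10 of the 14, against 44.5% of all genes, and the median log2 fold change was -0.17. The hypoxia list too was written with earlier results of these data known. Bnip3, a mitophagy gene, had an FPKM of 162.83, 110.26 and 159.10 and a fold of 0.679, just short of the threshold of 0.65. Pdk1, the kinase that closes pyruvate dehydrogenase, had 39.45, 27.40 and 42.28 and a fold of 0.702. Egln3, a HIF prolyl hydroxylase, had 0.734, with STZ lower still. Other targets of the same factor did not share this. Vegfa had 148.45, 147.46 and 141.72 and a count ratio of 0.986 (0.957 to 1.02), Ankrd37 had a fold of 1.03, and Ndrg1 had 1.11. Hif1a had 1.03. The core letters of the HIF binding site, ACGTG or GCGTG on either strand (matches may overlap where CACGTG occurs), were found before 7 of the 12 hypoxia genes with a promoter (58.3%), against 56.5% of the compared genes and 39.6% of all genes.

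The glycolytic enzymes, a list taken after the values were seen, gave 1 lower gene of 18 (Hk2) and 0 higher, 13 folds below 1 and a median of -0.05. The regulatory enzyme Pfkfb3 had an FPKM of 44.74, 32.38 and 39.21, a fold of 0.73. Pgam1 had a fold of 0.807, Pfkl of 0.818, Ldha of 0.885 and Aldoa of 0.913, all with counting intervals below 1. Eno1 (0.995), Hk1 (1.02) and Pfkp (1.06) lay near 1, and Pgam2, an isoform typical of muscle, had 1.52 from 48 and 79 reads. Ak4 (0.671), Plod2 (0.778) and Mxi1 (0.806), named after their values were seen, are other genes known to respond to HIF-1. In the carbonic anhydrase and acid sensing list, chosen because the citrate buffer was acid, 0 of 14 were higher and 1 was lower, which was Slc16a3; Car9 had 53 and 64 reads and Asic1 had a fold of 0.952.

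**Figure D4:**
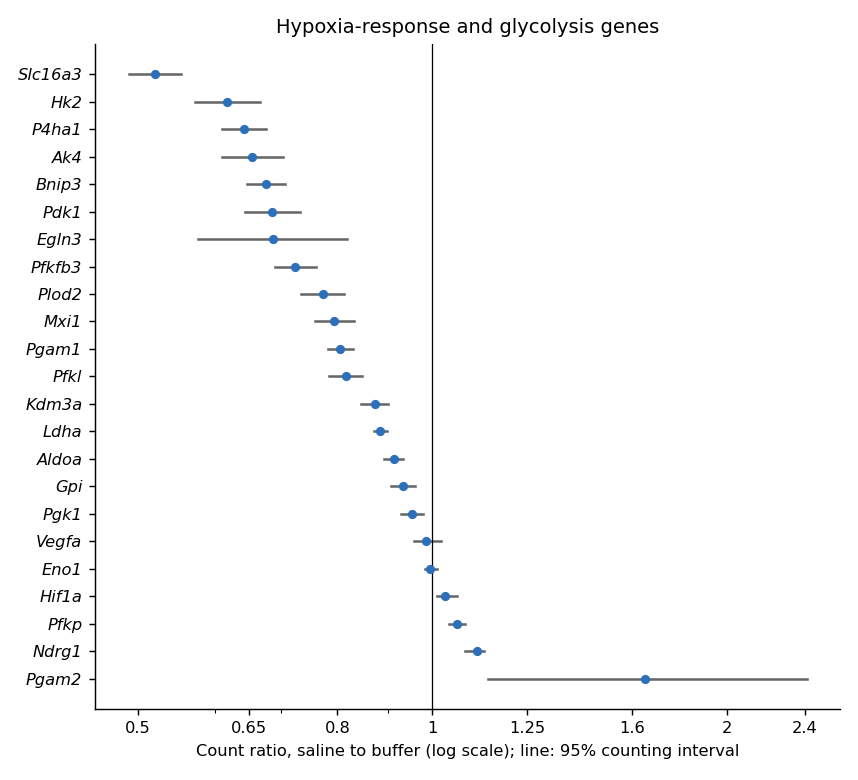
Count ratio of saline to buffer (x axis, log scale) of 23 hypoxia-response and glycolysis genes (y axis), with exact 95% counting intervals as lines; the vertical line marks 1. Slc16a3 is the lowest at 0.521, the ratios of Hk2, P4ha1, Ak4, Bnip3, Pdk1 and Egln3 lie between 0.617 and 0.687, and Vegfa and Eno1 lie near 1. The genes shown are a selection, with Ak4, Plod2 and Mxi1 named after their values were seen. The compared genes Adm, Ankrd37, Car9, P4ha2 and Hk1 are not shown. In the whole hypoxia list 10 of 14 folds were below 1 and 4 above.

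The remaining lower genes had no common function. Cd248, a gene of pericytes and fibroblasts, had 102 reads in buffer and 0 in saline and in STZ, which is at least 34-fold lower in saline than in buffer against 3 reads; in the pericyte list, which does not hold it, 0 of 10 genes passed a threshold and Pdgfrb had a fold of 0.9. Spp1, which encodes osteopontin, had 203, 102 and 217 reads (buffer, saline, STZ). Setbp1 had 1523, 849 and 1304 reads, with a fold of 0.621. Tmem221 (134, 67 and 189 reads), Lnp1 (188, 108 and 194) and Ccl27 (125, 82 and 117) had folds of 0.577, 0.607 and 0.616. Rpl10l and Rps4y2 had folds of 0.633 and 0.598 and are copies of ribosomal protein genes, whose reads can be shared with the parent gene. Rasd1 had a fold of 0.639 but a count ratio of 0.777, since its deposited FPKM and counts do not run parallel. LOC108348366, with 27 and 12 reads, Guca2a, with 16 and 6, and Pvalb, with 35 and 22, rest on few reads.

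The neurons and progenitors of the retina differed little, and 0 genes in the lists of progenitors, ganglion cells, amacrine cells, horizontal cells and photoreceptors passed a threshold. In bulk tissue, fewer cells of a type and less RNA per cell cannot be told apart. Photoreceptor genes had folds below 1 in 18 of 22 cases, with a median of -0.12, where 44.5% of all genes were below 1. Crx, the factor of the photoreceptor lineage, had a fold of 0.91, Gnat2, the cone transducin, 0.857 and Pde6b, a rod phosphodiesterase subunit, 0.798. Ganglion cell genes were below 1 in 13 of 16 cases, with a median of -0.11; Nefm and Gap43, which serve the axon, had 0.896 and 0.893, and the factor Pou4f2 had 1.04. The amacrine median was -0.03 over 15 genes and the horizontal cell median -0.08 over 6.

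Progenitor genes had a median of 0.04 over 17 genes, with Ccnd1, cyclin D1 of dividing progenitors, at an FPKM of 383.78 in buffer and 387.18 in saline, a fold of 1.01. Notch1 had 1.03. The exception was Hes5, a Notch target, with 147.97 in buffer, 103.96 in saline and 96.59 in STZ and a fold of 0.705, which did not pass the threshold. The G1/S and G2/M genes had medians of -0.03 and -0.01 and 0 of 17 and 0 of 16 past a threshold. Of 21 p53 target genes, 0 passed; Ccng1 had 1942 and 1896 reads in the controls, and Eda2r 19 and 6.

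Müller glia genes gave 1 higher gene of 16, Id3, and a median of 0.06, with Apoe (1.5), Clu (1.39) and Nfia (1.35) above and Rlbp1 (0.94) and Slc1a3 (0.931) below 1. The astrocyte median was 0.24 over 6 genes, from folds of 0.915 for Pdgfra to 1.19 for Fgfr3, and 0 passed. Endothelial genes had a median of -0.09 and 0 of 15 past a threshold; Kdr, the VEGF receptor that progenitors also express, had a fold of 1.11 and Apln, a gene of sprouting tip cells, 0.756. The pericyte and the oligodendrocyte and Schwann medians were -0.01 and -0.06. Of the 22 blood genes listed, 15 were in the table and 0 met the rule. The globin genes Hba1, Hba2, Hbb and Hbb-b1 have fractional counts and were not compared. Their folds were 1.36, 1.46, 1.29 and 2.96, and Hbb-b1 had 33.53 reads in buffer, 115.63 in saline and 69.02 in STZ.

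Further genes past the upper threshold had other roles or none assigned. LOC108348061, which has no RefSeq match, had 2 reads in buffer, 45 in saline and 0 in STZ, a count ratio of 22.5 (5.88 to 192). Itm2a had an FPKM of 48.83 in both buffer and STZ and 90.84 in saline, a fold of 1.84. Prss56, a serine protease gene that affects eye size, had 14.90, 26.52 and 16.93. Abca1, a cholesterol exporter, had 926, 1636 and 2211 reads, so that STZ was the highest. Aanat, which encodes the enzyme that sets melatonin synthesis, had 14, 37 and 15. The members nearest the upper threshold were Ctsh, Fam129a, Hspb1 and Rbm24 (all 1.55) just past it and Tmem176b and Capns2 just short of it, and nearest the lower one P4ha1 (0.647) past it and Slc25a53 (0.656) short of it.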

How the data were processed

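Retinal RNA at P4 was sequenced from 3 groups, with 1 TruSeq library each, on a HiSeq. Per the paper's methods and the submitters' processing notes, the authors checked reads with FastQC, trimmed 5′ ends, mapped them with TopHat2 (build rn6), discarded reads with several locations and computed FPKM with a custom R script. The annotation and the counting tool are not given in the sources used here. The deposited table gives for each gene an FPKM, a TPM, which was not used, and an estimated count. Of 14885 genes with a mean of at least 10 reads, 2254 with a fractional count were left out. How fractional counts arose although reads with several locations were discarded is not stated. Whether reads were shared between similar genes is therefore not known.

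Fold changes were computed from the deposited FPKM with a pseudocount of 1, and count ratios with exact Clopper-Pearson 95% intervals from the deposited counts, 21977843 to 22031249 reads per library. No molecular identifiers are described, so duplicate reads may be counted, and intervals cover counting error only. A count of 0 was set against a floor of 3 reads. No p-value was computed. Median log2 fold changes of lists were taken from the FPKM folds. The members, lists and thresholds were chosen with earlier results of these data known; 39 lists were written before and 10 lists or families after the values were opened here. Genes named were the 15 largest and 15 smallest folds, list members past a threshold, defining markers and abundant members; others are said to be named after their values were seen, or are listed as past a threshold. Identifiers were matched to RefSeq (GRCr8): 12479 of 12631. Promoters come from RefSeq, 250 bases before the start. Alternatives were the pseudocount, thresholds, minimum count, CPM computed from counts, and scaling by edgeR 4.0.16 or DESeq2 1.42.0 factors in R 4.3.3; no count model was fitted. Python 3.11.15, numpy 2.4.6, pandas 2.3.3, scipy 1.17.1 and matplotlib 3.10.9 were used. The calculations were tested on simulated data.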

Additional observations from a re-analysis of the deposited data

How the results depend on the processing

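The number of genes past the thresholds depended on the pseudocount, the thresholds, the unit, the minimum and the treatment of fractional counts. A pseudocount of 0.1 gave 383 higher and 83 lower genes in saline, against 100 and 15 with 1; all 115 genes were among them. With thresholds of 2 and 0.5 there were 36 higher and 1 lower. With a minimum mean of 50 reads, 63 were higher and 11 lower. Folds from CPM gave 171 higher and 16 lower genes, and 91 of the 100 higher and 10 of the 15 lower genes were among them. With genes of fractional counts included, 151 were higher and 66 lower. Scaling by TMM or median-of-ratios factors gave 98 higher genes each, and 16 or 15 lower ones. No minimum, a minimum over the control libraries only, a counting interval that excludes 1, and, chosen after the data were seen, leaving out the ciliary, pigment, lens, vitreous and Y-linked lists kept both numbers within 1.5 times. No gene past a threshold changed its direction under the pseudocount, CPM or either scaling. The median of 1 family, the Slc6 transporters, changed sign, from 0.01 to -0.02 with TMM and -0.01 with median-of-ratios factors. No paired analysis was possible because each group has 1 library without a replicate number, whether or not the buffer and STZ retinas share animals, and no library could be left out. In 9 of the 115 genes the deposited FPKM ratio and count ratio differ by over 1.2 times; the cause was not tested. At the lowest depths used, a few reads set a fold, and differences within the counting intervals were not detectable.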
